A study of Homo sapiens with 24 samples.

Results

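The aldehyde dehydrogenases (ALDHs) oxidise aldehydes to carboxylic acids, with NAD+ or NADP+ as the cofactor. The members described here are 10 genes of the family, chosen by name: ALDH1A3, ALDH1B1, ALDH2, ALDH3A2, ALDH3B1, ALDH4A1, ALDH5A1, ALDH6A1, ALDH7A1 and ALDH9A1. All 10 were listed in each of the 3 deposited tables, out of 13506 genes present in all tables and 14386 present in any. RNA was sequenced from Panc-1, an established human pancreatic ductal carcinoma line, after stable transfection with the empty Tet-One plasmid (Tet-One), with the plasmid carrying a myc-tagged rat MIST1 reading frame (Tet-MIST1), or with a myc-tagged mouse PTF1a reading frame (Tet-PTF1a). All transfected lines had been selected in puromycin and screened as individual clones. Each line was compared with and without doxycycline (Dox, 1 µg/ml for 72 h), which switches the plasmid's promoter on. There were 4 Control (no Dox) and 4 Dox libraries per line, 24 in all, from passage 32 (Tet-One and Tet-PTF1a) or passage 33 (Tet-MIST1). MIST1 and PTF1a are basic helix-loop-helix transcription factors of pancreatic acinar cells. They bind E boxes, and their loss accompanies the change of acinar cells into tumour cells.

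The family is best known in carcinoma for the ALDH activity by which stem-like cells are sorted, an activity to which ALDH1A3 contributes in several tumours by making retinoic acid from retinaldehyde. ALDH2 and ALDH1B1 are mitochondrial enzymes of acetaldehyde oxidation. ALDH3A2 oxidises long-chain fatty aldehydes at the endoplasmic reticulum and ALDH3B1 oxidises aldehydes from lipid peroxidation. The remaining members belong to amino acid and amine pathways: ALDH4A1 to proline, ALDH5A1 to γ-aminobutyric acid (GABA), ALDH6A1 to valine and pyrimidines, ALDH7A1 to lysine, and ALDH9A1 to carnitine synthesis.

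Libraries held 17210989 to 43018494 counted reads, and the shallowest were in the Tet-PTF1a groups. The epithelial genes KRT8, KRT18, KRT19, EPCAM and SOX9 were listed for every line, while PTPRC, CD3E, PECAM1, CDH5 and ALB, markers of blood, endothelial and liver cells, were not listed in any table. The row of human PTF1A held 0 to 2 counts per library in Tet-PTF1a Control and 53 to 168 in Tet-PTF1a Dox. Human MIST1 (BHLHA15) was not listed in the Tet-MIST1 table. The induced proteins were of mouse and rat origin, so these human rows are an indirect check of the labels. Tet-One Dox replicate 1 stood apart from its group. Over 12963 genes the SD of its log2 difference from the other 3 libraries was 0.587, against at most 0.245 for any other library. Tests of members whose outcome rests on it are given with and without it. Tet-MIST1 Dox replicate 1 also lay off its group, at 0.245 against 0.136 to 0.185 in the rest. Keratins and an acinar gene moved with Dox in Tet-PTF1a. KRT8 went from 1797 ± 48.7 to 751 ± 10.97 CPM (counts per 1000000 counted reads, mean ± SD, n = 4), KRT18 from 1102 ± 22.1 to 529 ± 11.7 and KRT19 from 269 ± 19.0 to 131 ± 2.23. KRT7, also a ductal keratin, went from 1.42 ± 0.343 to 4.58 ± 0.568, and the acinar trypsinogen gene PRSS1 from 0.0558 ± 0.0278 to 3.19 ± 0.278. EPCAM went from 56.8 ± 1.49 to 50.2 ± 0.890 and SOX9 from 248 ± 9.14 to 314 ± 7.59 on the same scale, and the part of these shifts in the ALDH results was not tested. In bulk RNA, fewer cells of a kind and less transcript per cell cannot be told apart.

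Promoters are shown for 5 of the 6 members whose transcripts turned out to differ most with Dox, because both induced factors bind E boxes. RefSeq promoters (build GRCh38.p14) were found for 9 of the 10 members, all but ALDH2, which is the remaining one of these 6. Each line gives the 250 bases before the annotated start, 5′ to 3′ on the gene's strand, and capitals mark E boxes (CANNTG).
ALDH1A3, chr15:100879581-100879830, plus strand: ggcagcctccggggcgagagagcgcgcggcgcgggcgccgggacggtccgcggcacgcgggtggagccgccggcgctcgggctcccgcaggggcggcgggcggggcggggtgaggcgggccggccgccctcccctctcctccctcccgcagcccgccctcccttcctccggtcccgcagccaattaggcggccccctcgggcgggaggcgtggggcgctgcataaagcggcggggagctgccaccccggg
ALDH5A1, chr6:24494719-24494968, plus strand: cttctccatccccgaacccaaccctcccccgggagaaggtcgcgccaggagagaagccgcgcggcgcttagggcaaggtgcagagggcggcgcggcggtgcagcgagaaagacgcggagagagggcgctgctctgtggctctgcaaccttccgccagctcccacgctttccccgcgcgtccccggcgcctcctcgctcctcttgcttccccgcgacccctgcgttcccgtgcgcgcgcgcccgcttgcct
ALDH3B1, chr11:68008297-68008546, plus strand: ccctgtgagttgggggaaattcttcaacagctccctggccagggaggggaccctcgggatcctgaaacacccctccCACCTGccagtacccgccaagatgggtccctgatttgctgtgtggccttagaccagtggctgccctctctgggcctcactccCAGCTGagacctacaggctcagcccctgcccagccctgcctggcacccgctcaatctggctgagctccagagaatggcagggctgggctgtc
ALDH3A2, chr17:19647886-19648135, plus strand: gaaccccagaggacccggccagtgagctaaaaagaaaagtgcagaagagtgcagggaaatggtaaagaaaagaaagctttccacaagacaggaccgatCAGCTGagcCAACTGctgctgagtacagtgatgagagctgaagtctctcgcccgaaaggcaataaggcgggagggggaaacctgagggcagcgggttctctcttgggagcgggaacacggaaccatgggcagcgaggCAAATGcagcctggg
ALDH6A1, chr14:74084454-74084703, minus strand: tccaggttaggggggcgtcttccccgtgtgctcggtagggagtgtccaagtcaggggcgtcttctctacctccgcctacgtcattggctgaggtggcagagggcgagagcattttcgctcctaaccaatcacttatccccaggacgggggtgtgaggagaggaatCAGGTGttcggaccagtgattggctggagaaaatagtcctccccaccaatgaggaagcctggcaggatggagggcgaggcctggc
ALDH1A3 and ALDH5A1 held no CANNTG in this window, ALDH3B1 held 2, ALDH3A2 held 3 and ALDH6A1 held 1. Among all 9 promoters, 4 held at least 1 CANNTG (ALDH3A2, ALDH3B1, ALDH6A1 and ALDH7A1), against 62.2% of 27305 RefSeq promoters of the same length. The form CAGCTG, which is contained in CANNTG, stood in 3 of 9 against 13.8%, and the form CATCTG, also contained in it and searched on both strands, stood in 1 of 9 against 12.2%. TGGGAAA, the TC box that PTF1a recognises together with its partner RBPJ, stood in 0 of 9 on either strand against 6.9%. Among the 9998 promoters of genes present in all 3 tables, the shares were 52.6% (CANNTG), 12.5% (CAGCTG), 7.68% (CATCTG) and 6.35% (TGGGAAA). The ALDH1A3 window was 82.4% G and C, against a median of 58.0% over all promoters. These matches describe letters in a short window and say nothing of binding.

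In Tet-PTF1a cells 6 of the 10 members fell with Dox, namely ALDH3B1, ALDH1A3, ALDH2, ALDH5A1, ALDH1B1 and ALDH7A1, and the other 4 were not called. In Tet-MIST1 cells ALDH6A1 and ALDH3A2 rose while ALDH5A1 and ALDH1A3 fell. In Tet-One cells no member was called. A gene was called where its false discovery rate (FDR, the Benjamini-Hochberg adjusted p-value of edgeR's quasi-likelihood test over all genes tested) was under 0.05. With that rule, Dox called 48.2% of 14053 genes in Tet-PTF1a (24.4% lower, 23.8% higher), 20.6% of 13623 in Tet-MIST1 (11.9% higher, 8.77% lower) and 0.0% of 13428 in Tet-One. The 6 members called in Tet-PTF1a and the 4 called in Tet-MIST1 are to be read against those shares. With library size scaling, which moved the median of all genes in Tet-PTF1a from 0.00136 to 0.04, 4392 genes were called higher and 2698 lower there, against 3344 and 3431. Under that scaling the same 6 members were lower, and ALDH3A2 and ALDH9A1 were called higher. The median log2 fold change of the members was -0.17 for Tet-PTF1a, 0.04 for Tet-MIST1 and 0.04 for Tet-One, against 0.00136, -0.00364 and 0.00393 over all genes tested.

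**Figure D1:**
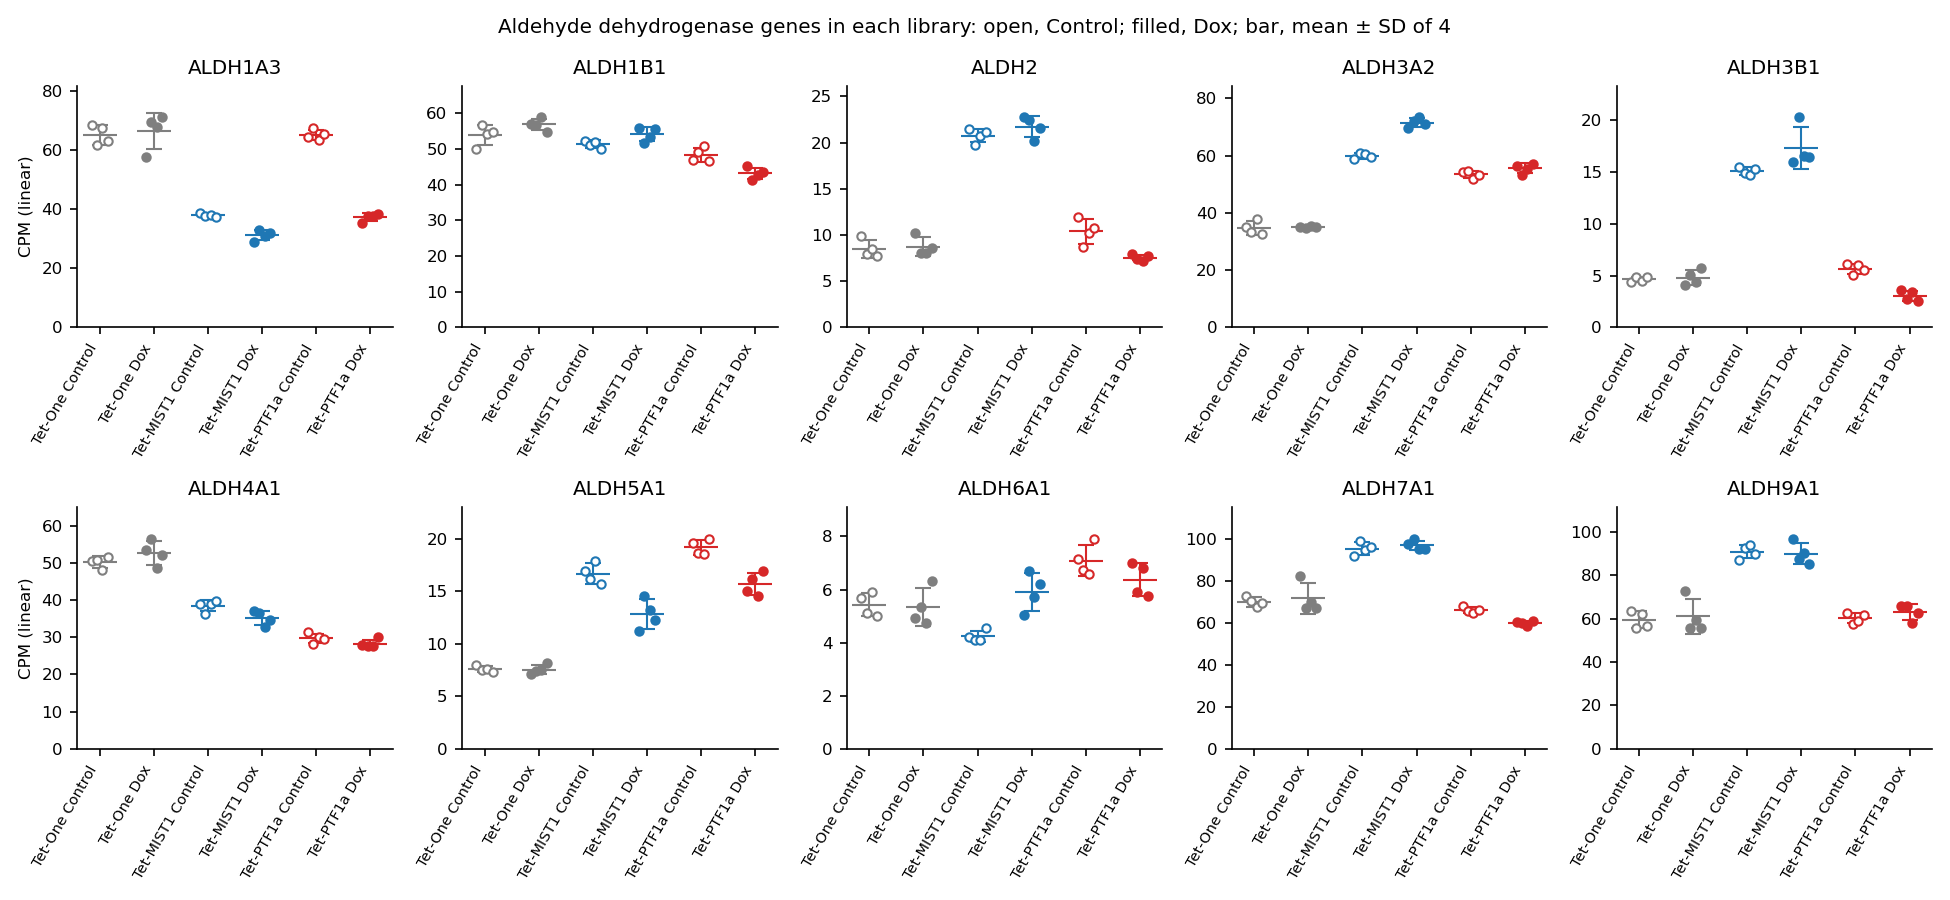
Level in CPM (linear axis, scaled over all 24 libraries) of the 10 members by group, with 1 point per library (open, Control; filled, Dox) and bars for the mean and SD of 4 libraries. ALDH1A3 in Tet-PTF1a moved from 63.4-67.5 without Dox to 35.3-38.5 with it, while the 6 groups of ALDH9A1 differ mainly by line.

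ALDH1A3 (chr15:101419897-101456830 in hg19, plus strand, 13 listed exon intervals), the retinaldehyde dehydrogenase, was among the members with the largest response. In CPM scaled over all libraries, the 4 Tet-PTF1a Control libraries measured 64.7, 67.5, 63.4 and 65.5, and the 4 Dox libraries 35.3, 37.6, 37.8 and 38.5. The groups did not overlap, and the level fell by 0.80 on the log2 scale (SE 0.04, n = 4 and 4, edgeR FDR = 8.54e-25), a decrease of 42.4%. In Tet-MIST1 the Control libraries measured 38.7, 37.8, 38.2 and 37.5 CPM and the Dox libraries 29.0, 33.0, 31.0 and 32.1. These groups did not overlap either, and the level fell by 0.29 (SE 0.05, edgeR FDR = 0.00315). Tet-One cells gave 68.6, 61.8, 67.4 and 63.2 CPM without Dox and 57.8, 69.5, 67.9 and 71.1 with it, where the lowest value was that of replicate 1, the library that stands apart. The Tet-One log2 change was 0.03 (SE 0.08, FDR = 0.915), or 0.09 (SE 0.05, FDR = 0.437) without that library. Without Dox, ALDH1A3 was already lower in Tet-MIST1 (38.0 ± 0.537 CPM, mean ± SD, n = 4) than in Tet-One (65.2 ± 3.29), and Tet-PTF1a with Dox (37.3 ± 1.39) overlapped the range of Tet-MIST1 Control. ALDH1A3 and ALDH2 are on a list of pancreatic stem cell markers that the study compiled and then examined in these samples, so their direction is not independent evidence for that list. The study also reported a significant decrease of ALDH1A3 transcript with PTF1a by RT-qPCR. For MIST1 it reported little or no effect on such markers without showing the data, whereas ALDH1A3 was called lower in Tet-MIST1 here. On the other strand, ALDH1A3-AS1 overlaps 47.5% of the listed exon bases of ALDH1A3, and since the use of strand in counting is not given in the sources used here, reads of the pair cannot be told apart.

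ALDH2 (chr12:112204691-112247789, plus strand), the mitochondrial acetaldehyde dehydrogenase, fell with Dox in Tet-PTF1a. Its Control libraries there measured 12.0, 8.65, 10.2 and 10.7 CPM and its Dox libraries 7.90, 7.42, 7.20 and 7.72, without overlap. The level fell by 0.48 on the log2 scale (SE 0.08, edgeR FDR = 1.13e-06), or 28.5%. In Tet-MIST1 it was 20.8 ± 0.721 CPM without Dox and 21.7 ± 1.17 with Dox (log2 change 0.06, 95% interval -0.06 to 0.18), and the groups overlapped. A transcript of another annotated gene on the same strand covers 33.0% of its listed exon bases, which could divide its reads. ALDH1B1 (chr9:38392661-38398662, plus strand), its mitochondrial relative, measured 46.9, 49.1, 50.7 and 46.5 CPM in Tet-PTF1a Control and 45.1, 41.3, 42.6 and 43.5 in Dox. All Dox libraries lay below all Control libraries, by a small margin, and the level fell by 0.15 (SE 0.04, FDR = 9.20e-04).

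Of the lipid aldehyde enzymes, ALDH3B1 was called in Tet-PTF1a and ALDH3A2 in Tet-MIST1. ALDH3B1 (chr11:67776017-67796749, plus strand) measured 6.08, 5.06, 6.05 and 5.50 CPM in Tet-PTF1a Control and 3.56, 2.75, 3.40 and 2.57 in Dox, from 60 to 264 reads per library. It fell by 0.91 on the log2 scale (SE 0.11, edgeR FDR = 6.33e-10), 46.9%, the largest change of any member in any line with Dox. In Tet-MIST1 its Control libraries ranged from 14.7 to 15.5 CPM and its Dox libraries measured 15.9, 20.3, 16.6 and 16.5. They did not overlap, but the log2 change of 0.19 (SE 0.08) had an FDR of 0.0904. Without Tet-MIST1 Dox replicate 1 it was 0.23 with FDR = 0.0133. Over the 8 fits with a library left out, the change ranged from 0.11 to 0.23 (FDR up to 0.200), and no other of these passed. Of 8 other alternatives, 1 passed (FDR = 0.0488). The Dox library at 20.3 CPM lay far from the rest of its group.

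ALDH3A2 (chr17:19552064-19580908, plus strand) measured 58.7, 61.0, 60.5 and 59.5 CPM in Tet-MIST1 Control and 69.6, 72.0, 73.3 and 71.2 in Dox. The Dox libraries were all higher, and the level rose by 0.25 on the log2 scale (SE 0.04, edgeR FDR = 0.00173), or 19.0%. In Tet-PTF1a it measured 53.5 ± 1.29 CPM without Dox and 55.6 ± 1.69 with Dox, with overlap (log2 change 0.06, 95% interval -0.01 to 0.13, FDR = 0.142). With library size scaling the change was 0.10 (FDR = 0.0151).

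**Figure D2:**
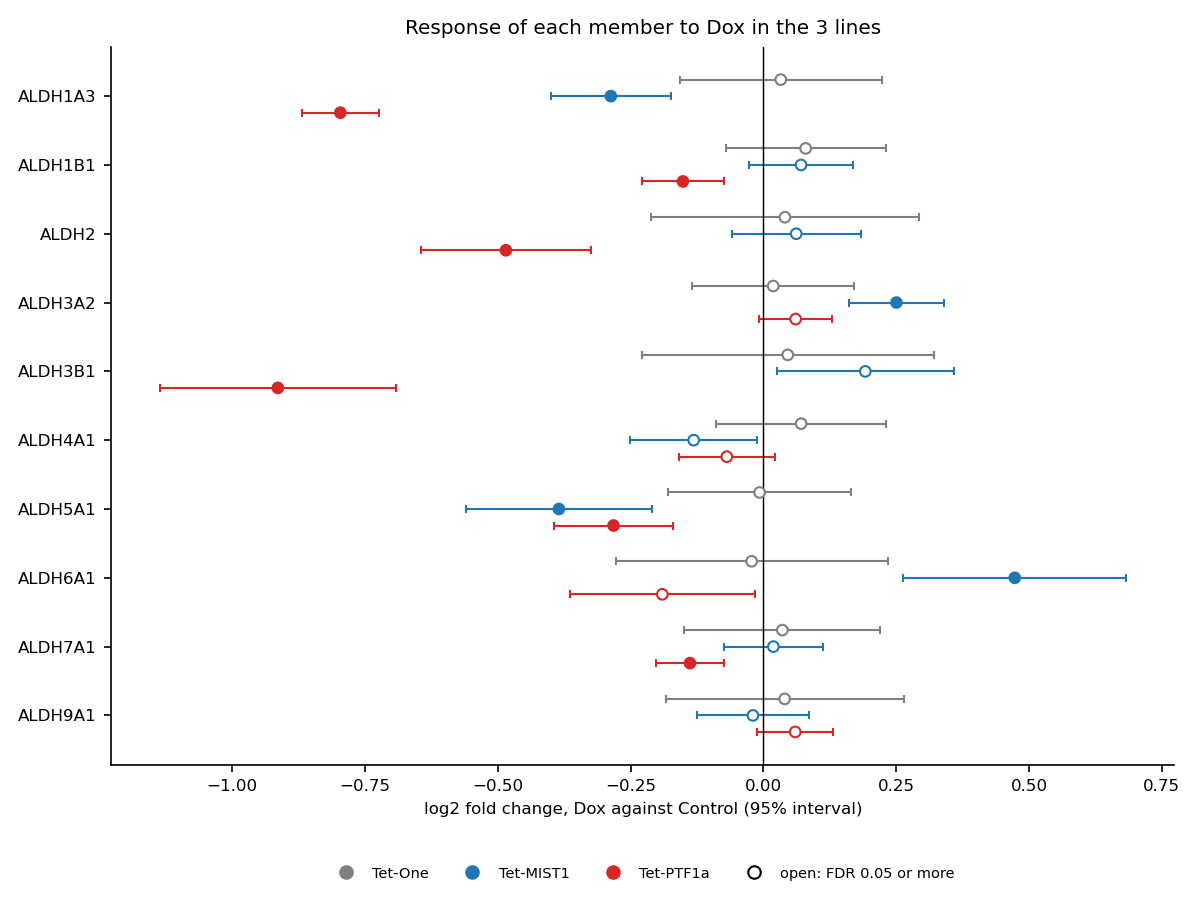
Log2 fold change of Dox against Control for each member in Tet-One (grey), Tet-MIST1 (blue) and Tet-PTF1a (red), with 95% intervals of edgeR's quasi-likelihood fit. Filled points have FDR under 0.05: 0 for Tet-One, 4 for Tet-MIST1 and 6 for Tet-PTF1a, with ALDH1A3 and ALDH5A1 filled on the left in both induced lines.

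Among the amino acid enzymes, ALDH5A1 (chr6:24495197-24537435, plus strand), the succinic semialdehyde dehydrogenase that ends GABA degradation, was the other member called in both induced lines. Its Tet-PTF1a libraries measured 19.6, 18.7, 18.5 and 19.9999 CPM without Dox and 15.1, 16.2, 14.6 and 16.9 with Dox. Its Tet-MIST1 libraries measured 17.0, 16.2, 17.9 and 15.7 CPM without Dox and 11.2, 14.6, 13.2 and 12.3 with Dox. Neither pair of groups overlapped, and the level fell by 0.28 (SE 0.06, edgeR FDR = 3.14e-05) and by 0.38 (SE 0.08, FDR = 0.00678).

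ALDH6A1 (chr14:74524368-74551196, minus strand), the methylmalonate semialdehyde dehydrogenase, was the member with the largest rise. In Tet-MIST1 it measured 4.21, 4.08, 4.08 and 4.54 CPM without Dox and 5.04, 6.69, 5.71 and 6.20 with Dox. All Dox libraries were higher, and the level rose by 0.47 on the log2 scale (SE 0.10, edgeR FDR = 0.00581), or 38.8%, from counts of 163 to 254 reads per library. In Tet-PTF1a it measured 7.14, 6.75, 6.58 and 7.90 CPM without Dox and 7.01, 5.91, 6.80 and 5.77 with Dox. These overlapped, and the log2 change of -0.19 (SE 0.09) had an FDR of 0.0631. That value passed the threshold when Tet-PTF1a Control replicate 3 (FDR = 0.0446), Dox replicate 1 (FDR = 0.0367) or Dox replicate 3 (FDR = 0.0450) was left out. These were 3 of 8 such fits, over which the change ranged from -0.23 to -0.13 (FDR up to 0.280). Of 8 other alternatives, 1 passed (FDR = 0.0241).

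ALDH7A1 (chr5:125877533-125931082, minus strand), the lysine pathway enzyme, measured 68.3, 66.0, 64.7 and 66.1 CPM in Tet-PTF1a Control and 60.5, 60.1, 58.8 and 61.2 in Dox. It fell by 0.14 on the log2 scale (SE 0.03, edgeR FDR = 2.93e-04) and the groups did not overlap, although in a fit over all 24 libraries its FDR was 0.0571. The annotation holds 4 pseudogenes named after ALDH7A1, with which it could share reads. ALDH4A1 (chr1:19197924-19229293, minus strand), the proline pathway enzyme, was 29.7 ± 1.27 CPM without Dox and 28.3 ± 1.12 with Dox in Tet-PTF1a (FDR = 0.207), and 38.5 ± 1.53 and 35.2 ± 1.96 in Tet-MIST1, where the log2 change of -0.13 had an FDR of 0.105. Without Tet-MIST1 Dox replicate 1 the latter was -0.15 with FDR = 0.0303. No other of the 8 fits with a library left out passed (-0.16 to -0.10, FDR up to 0.228). A gene annotated on the same strand covers 42.4% of its listed exon bases.

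ALDH9A1 (chr1:165631449-165667900, minus strand), the enzyme of carnitine synthesis, did not pass the test in any line with Dox. Its log2 change was 0.04 for Tet-One (95% interval -0.18 to 0.26), or -0.06 without Tet-One Dox replicate 1. For Tet-MIST1 it was -0.02 (-0.13 to 0.09). For Tet-PTF1a it was 0.06 (-0.01 to 0.13, FDR = 0.166). The last was 0.10 without Tet-PTF1a Dox replicate 3 (FDR = 0.0249) and 0.10 with library size scaling (FDR = 0.0196). No other fit with a library left out passed there (FDR up to 0.452). In Tet-One Dox replicate 1, ALDH9A1 measured 72.7 CPM against 55.8 to 59.6 in the other 3 libraries, and ALDH7A1 82.6 against 67.1 to 70.3.

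All Dox libraries lay below all Control libraries for 6 members in Tet-PTF1a, the same 6 that were called, and for 2 in Tet-MIST1, where 3 lay above. Over all genes the share that did not overlap in that direction was 22.3% (Tet-PTF1a, lower), 12.5% (Tet-MIST1, lower) and 14.4% (Tet-MIST1, higher). In Tet-One 0 members were without overlap, against 2.37% of all genes. No member reached an unadjusted p under 0.05 in Tet-One, where the smallest FDR of a member was 0.897, and DESeq2 also called 0 members. That fit could not show small changes: its 95% intervals ran from -0.28 to 0.23 for ALDH6A1 and from -0.23 to 0.32 for ALDH3B1, and the biological coefficient of variation was 14.4%, or 4.79% without Tet-One Dox replicate 1. As CPM per kb of listed exon, the sum over the 10 members was 106 ± 1.76 in Tet-PTF1a Control and 93.2 ± 2.02 in Dox (range 104 to 108 against 90.5 to 94.9). The sum was 129 ± 1.29 and 131 ± 2.28 in Tet-MIST1, and 105 ± 2.45 and 108 ± 3.43 in Tet-One. Over the 13 listed ALDH genes, which add ALDH1L2, ALDH16A1 and ALDH18A1, it was 170 ± 1.34 and 186 ± 2.08 in Tet-MIST1. That wider sum was 144 ± 2.42 and 133 ± 0.528 in Tet-PTF1a, and 149 ± 2.56 and 151 ± 2.01 in Tet-One.

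Whether the response to Dox differed between lines was examined as a line-by-Dox interaction, in fits that held the 16 libraries of 2 lines. The 3 interaction tests share libraries with each other and with the tests above. Against Tet-One, 4 members fell more in Tet-PTF1a, and 12.9% of 13506 genes were called (7.34% lower). The difference between the log2 responses was -0.94 for ALDH3B1 (SE 0.17, edgeR FDR = 0.00125), -0.84 for ALDH1A3 (SE 0.09, FDR = 8.65e-06), -0.50 for ALDH2 (SE 0.15, FDR = 0.0327) and -0.24 for ALDH1B1 (SE 0.07, FDR = 0.0409). The calls of ALDH3B1 and ALDH1A3 held with each of the 16 libraries left out. That of ALDH2 held in 7 of 16 such fits (FDR up to 0.0785) and that of ALDH1B1 in 5 of 16 (FDR up to 0.0947). ALDH5A1 differed by -0.28 (SE 0.09) with an FDR of 0.050011, just above the threshold, and was not called. Without Tet-One Dox replicate 1, 5 members were called, ALDH5A1 among them (-0.30, FDR = 0.0126), against 30.7% of all genes (16.1% lower).

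For Tet-MIST1 against Tet-One, no member was called, against 1.67% of 13859 genes. At an unadjusted p under 0.05 there were 5 members, and the smallest FDR of a member was 0.116. The difference of the log2 responses was -0.33 for ALDH1A3 (95% interval -0.53 to -0.12), -0.38 for ALDH5A1 (-0.62 to -0.15), 0.23 for ALDH3A2 (0.08 to 0.37) and 0.49 for ALDH6A1 (0.17 to 0.81). This count changed with Tet-One Dox replicate 1 and with the fit. Without that library the same 4 members were called, ALDH1A3 (FDR = 0.00133), ALDH5A1 (0.0198), ALDH3A2 (0.0328) and ALDH6A1 (0.0428), and so were 14.1% of all genes (7.58% higher, 6.57% lower). With all libraries in, DESeq2 called 2 members, the fit over all 24 libraries 4, and the fit without the dependence on exon length and GC 3. Over all genes these fits called 499 of 13859, 533 of 13506 and 812 of 13859, against 232 of 13859 in the reported fit. Leaving out Tet-One Dox replicate 4 called ALDH6A1 alone (FDR = 0.0490), and leaving out Tet-MIST1 Dox replicate 2 called ALDH5A1 alone (FDR = 0.0409).

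Between the induced lines, 7 members responded lower in Tet-PTF1a than in Tet-MIST1 and 0 higher, against 36.4% of 13506 genes (18.6% lower). ALDH3B1 differed by -1.09 on the log2 scale (SE 0.14, edgeR FDR = 2.37e-06), ALDH6A1 by -0.64 (SE 0.13, FDR = 5.31e-04), ALDH2 by -0.53 (SE 0.10, FDR = 3.67e-04) and ALDH1A3 by -0.50 (SE 0.06, FDR = 1.27e-06). The other 3 were ALDH1B1 (-0.22), ALDH3A2 (-0.18) and ALDH7A1 (-0.14, FDR = 0.0256). The ALDH7A1 call was lost without Tet-MIST1 Control replicate 1 (FDR = 0.0599) or Tet-PTF1a Control replicate 1 (FDR = 0.0576). ALDH5A1, lower with Dox in both lines, differed by 0.11 between them (95% interval -0.09 to 0.32).

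**Figure D3:**
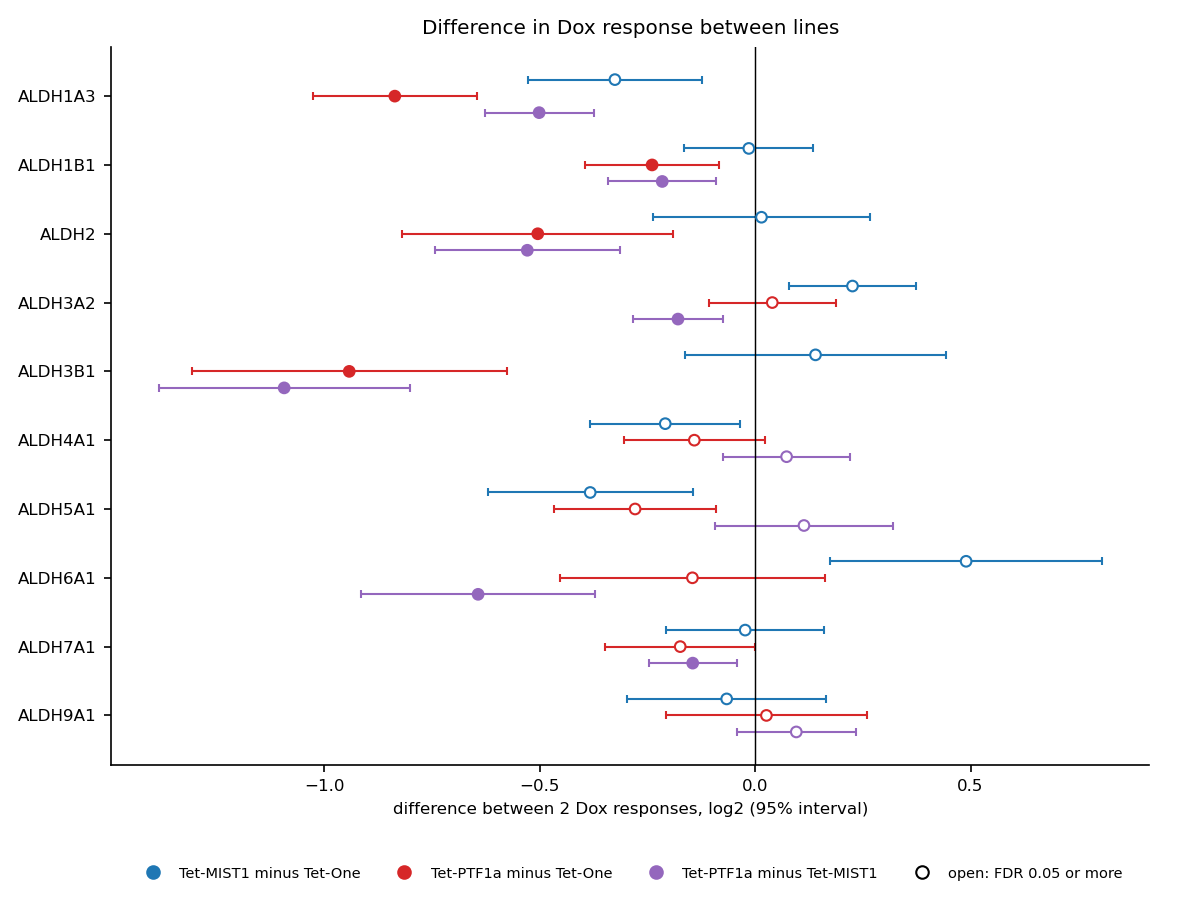
Difference between the log2 Dox responses of a pair of lines for each member, with 95% intervals of the interaction term, for Tet-MIST1 minus Tet-One (blue), Tet-PTF1a minus Tet-One (red) and Tet-PTF1a minus Tet-MIST1 (purple). Filled points have FDR under 0.05, which holds for 0, 4 and 7 members, all of them to the left of 0.

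Without Dox the family already differed between the lines, as most genes did. Line, clone, library preparation and, for Tet-MIST1, passage cannot be told apart in these comparisons, and both use the same 4 Tet-One libraries. Tet-MIST1 Control differed from Tet-One Control in 9 members, 6 higher and 3 lower, where 80.2% of 13805 genes were called (39.5% higher, 40.7% lower). ALDH3B1 measured 15.1 ± 0.366 CPM against 4.63 ± 0.251, higher by 1.69 on the log2 scale (SE 0.06, edgeR FDR = 9.33e-15). ALDH2 was higher by 1.28, ALDH5A1 by 1.13, ALDH3A2 by 0.79, ALDH9A1 by 0.61 and ALDH7A1 by 0.45. ALDH1A3 was lower, with a log2 difference of -0.78 (SE 0.04), as were ALDH4A1 (-0.38) and ALDH6A1 (-0.36). ALDH1B1 was not called (-0.07, FDR = 0.135), but was without Tet-One Control replicate 1 (-0.11, FDR = 0.0227) and with the dependence on exon length and GC taken out (-0.16, FDR = 5.10e-04). It was not called with any other library left out (FDR up to 0.424).

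Tet-PTF1a Control differed from Tet-One Control in 8 members, 5 higher and 3 lower, where 79.7% of 13429 genes were called (39.5% higher, 40.1% lower). ALDH5A1 measured 19.2 ± 0.718 CPM against 7.60 ± 0.266 in Tet-One, higher by 1.32 on the log2 scale (SE 0.06). ALDH3A2 was higher by 0.61, ALDH6A1 by 0.38, ALDH2 by 0.30 and ALDH3B1 by 0.28. Lower were ALDH4A1 (-0.77), ALDH1B1 (-0.18) and ALDH7A1 (-0.10). ALDH1A3 did not pass the test (-0.02, 95% interval -0.10 to 0.07, but -0.13 with FDR = 0.00119 once the dependence on exon length and GC was taken out), nor did ALDH9A1 (0.01, -0.09 to 0.10). That same adjustment gave 0.07 for ALDH6A1 (FDR = 0.425), 0.60 for ALDH2, 0.56 for ALDH3B1, 0.39 for ALDH3A2 and -0.37 for ALDH7A1 (FDR = 3.31e-10). With library size scaling ALDH1B1 differed by -0.09 (FDR = 0.0704). The ALDH7A1 difference was -0.01 (FDR = 0.812) with library size scaling and -0.08 (FDR = 0.167) in 1 fit over all 24 libraries, and its call was also lost without Tet-One Control replicate 1 (FDR = 0.0626), Tet-PTF1a Control replicate 3 (FDR = 0.0684) or Tet-PTF1a Control replicate 4 (FDR = 0.0586).

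Levels of different genes are compared here only per exon length, as CPM per kb of listed exon. ALDH9A1 was the highest of the 10 members in every group (23.8 ± 1.54 in Tet-One Control, 36.3 ± 1.19 in Tet-MIST1 Control and 24.1 ± 0.910 in Tet-PTF1a Control). In Tet-One Control it was followed by ALDH1A3 (18.1 ± 0.913) and ALDH1B1 (17.5 ± 0.896), which did not differ beyond their spread, and then by ALDH7A1 (14.2 ± 0.452) and ALDH4A1 (14.0 ± 0.421), which did not either. ALDH3A2 (9.06 ± 0.602) and ALDH2 (4.13 ± 0.459) came next, and ALDH3B1 (1.55 ± 0.0843), ALDH5A1 (1.47 ± 0.0514) and ALDH6A1 (1.12 ± 0.0894) were the lowest. Among these members ALDH1A3 held the place next to ALDH9A1 in Tet-PTF1a Control as well (18.1 ± 0.469). With Dox it measured 10.3 ± 0.386 there, below ALDH3A2 (14.5 ± 0.443), ALDH1B1 (14.0 ± 0.525) and ALDH7A1 (12.2 ± 0.211). In Tet-MIST1 Control, ALDH1A3 (10.5 ± 0.149), ALDH4A1 (10.7 ± 0.427) and ALDH2 (10.1 ± 0.350) stood side by side.

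**Figure D4:**
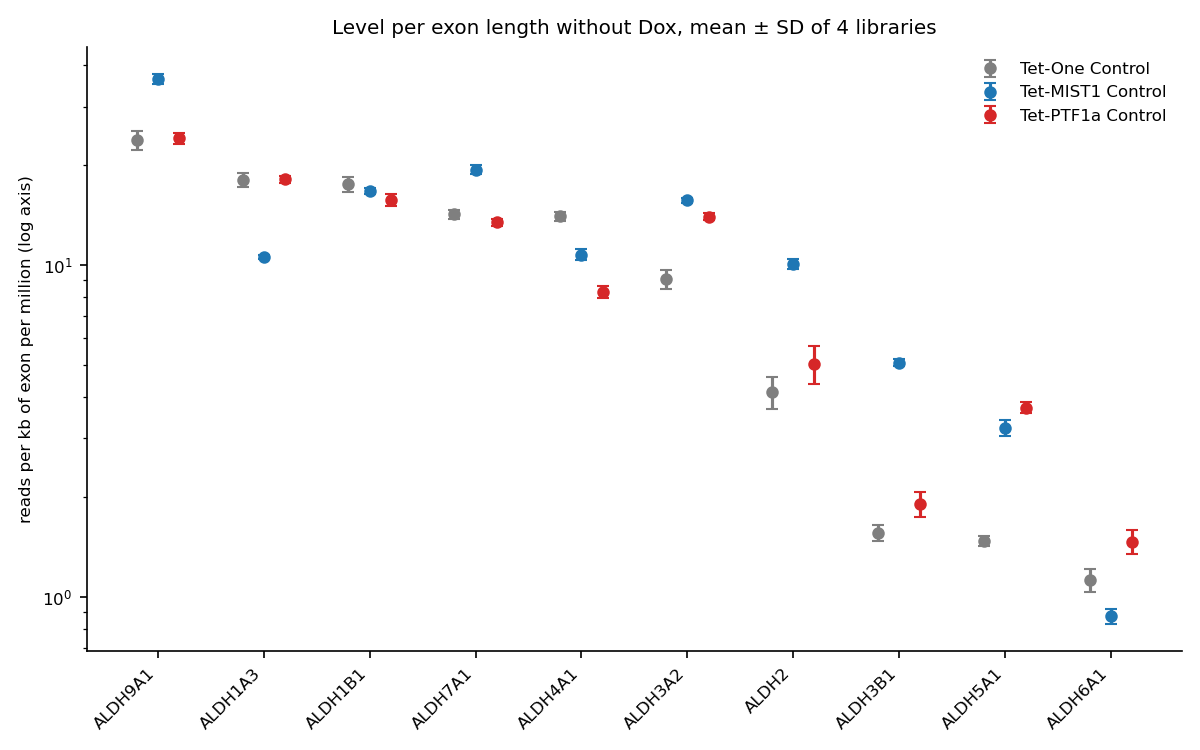
Level of each member per exon length (CPM per kb of listed exon, log axis) in the 3 Control groups, as the mean and SD of 4 libraries, ordered by the level in Tet-One. ALDH1A3 stood at 18.1 in Tet-One and Tet-PTF1a and at 10.5 in Tet-MIST1, and ALDH3B1 at 1.55, 1.90 and 5.07 in Tet-One, Tet-PTF1a and Tet-MIST1.

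Across the 6 groups, the mean level of ALDH1A3 was highest in Tet-One Dox (66.6 CPM), Tet-PTF1a Control (65.3) and Tet-One Control (65.2), whose ranges overlapped. Tet-MIST1 Control (38.0) and Tet-PTF1a Dox (37.3) followed, overlapping each other, and Tet-MIST1 Dox was lowest (31.3). ALDH5A1 had another order: Tet-PTF1a Control (19.2), Tet-MIST1 Control (16.7), Tet-PTF1a Dox (15.7), Tet-MIST1 Dox (12.8), and both Tet-One groups (7.60 and 7.55), where Tet-MIST1 Control overlapped Tet-PTF1a Dox, the Tet-One groups overlapped each other, and no other neighbours did. ALDH3A2 and ALDH3B1 were highest in Tet-MIST1 Dox and then Tet-MIST1 Control, without overlap, and ALDH3B1 was lowest in Tet-PTF1a Dox (3.07 ± 0.484 CPM).

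For the members called in both induced lines, the genes with the most similar pattern were sought by Pearson's r of log2 CPM over the 24 libraries, among 12962 genes with a mean above 1 CPM. For ALDH1A3 these were STAT5B (r = 0.984), SPATS2L (0.976) and ITGBL1 (0.966). STAT5B, a cytokine-activated transcription factor, measured 175 ± 1.77 CPM in Tet-PTF1a Control and 116 ± 0.903 in Dox, and 192 ± 8.75 in Tet-One Control. For ALDH5A1 they were TSHZ3 (0.980), FERMT1 (0.978) and PLEKHH2 (0.977). FERMT1, an integrin activator of epithelial cells, measured 9.80 ± 0.786 CPM in Tet-PTF1a Control, 6.82 ± 0.524 in Dox and 1.97 ± 0.150 in Tet-One Control. The libraries behind such a value share line, depth and treatment, so it mostly describes the order of the 6 groups.

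Of 9 further ALDH genes looked for, ALDH1L2, ALDH16A1 and ALDH18A1 were listed, and ALDH1A1, ALDH1A2, ALDH1L1, ALDH3A1, ALDH3B2 and ALDH8A1 were not listed in any table. ALDH18A1, which makes proline precursors from glutamate, measured 107, 105, 108 and 105 CPM in Tet-MIST1 Control and 145, 146, 149 and 145 in Dox. The groups lay far apart, and the level rose by 0.45 on the log2 scale (SE 0.04, edgeR FDR = 1.74e-05). It differed from the Tet-One response by 0.53 (SE 0.07, FDR = 3.40e-04), in the test that called no member. ALDH1L2, a mitochondrial folate enzyme, rose in Tet-MIST1 from 13.7 ± 0.615 to 27.2 ± 6.29 CPM, by 0.98 (SE 0.14, FDR = 7.86e-04). Its difference from the Tet-One response was 1.56 with an FDR of 0.0511, or 0.00322 with DESeq2 and 0.00997 without Tet-One Dox replicate 1, where it measured 5.78 CPM against 10.4 to 15.2 in the rest of that group. In Tet-PTF1a, ALDH18A1 rose by 0.10 (SE 0.03, FDR = 0.00272) and ALDH16A1, whose mammalian product is thought to lack catalytic activity, fell by 0.22 (SE 0.06, FDR = 0.00161), and both calls were lost in the fit over all 24 libraries (FDR = 0.0792 and 0.118). ALDH1L2 ranged from 12.8 to 23.4 CPM without Dox and from 15.1 to 16.3 with it (log2 change -0.09, FDR = 0.786). Without Tet-PTF1a Control replicate 1, the library at 23.4 CPM, its change turned to 0.20 with FDR = 0.00841.

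Lists of genes that work beside these enzymes were then described by their counts, to be read against the 48.2% of all genes called in Tet-PTF1a and the 20.6% called in Tet-MIST1. Against the Tet-One response fewer of their genes were called. For Tet-PTF1a these were 2 higher and 3 lower of 17 in the retinoid list, 1 and 1 of 26 in the branched-chain list, 0 and 1 of 10 in the proline and lysine list, 1 and 1 of 10 in the GABA and glutamate list and 0 of 8 reductases, where 12.9% of all genes were called. For Tet-MIST1 they were 1 branched-chain gene and 1 proline and lysine gene, both higher, and 0 in the other 3 lists, where 1.67% of all genes were called. These list counts are given only with Tet-One Dox replicate 1 in the fit. Without it, 30.7% of all genes were called for Tet-PTF1a and 14.1% for Tet-MIST1. Of 17 retinoid pathway genes tested in Tet-PTF1a, 4 rose and 7 fell (64.7% called, median log2 change -0.10). CRABP2, which carries retinoic acid to its nuclear receptor, rose from 78.4 ± 2.33 to 131 ± 2.61 CPM (log2 change 0.75, edgeR FDR = 1.03e-27), and the receptor gene RXRB by 0.16. DHRS3, which reduces retinaldehyde back to retinol and so draws on the substrate of ALDH1A3, fell by 1.27 (21.6 ± 0.745 to 8.80 ± 1.05 CPM, FDR = 5.35e-23). CRABP1, at under 1 CPM, fell by 0.87, and CYP26B1, which degrades retinoic acid, by 0.49. In Tet-MIST1, 2 of 18 rose and 0 fell (11.1%, median 0.02), among them RDH11, a retinal reductase, by 0.14.

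Of 26 branched-chain amino acid catabolism genes, the pathway of ALDH6A1, 14 fell and 2 rose in Tet-PTF1a (61.5% against 48.2% of all genes, median -0.10). IVD fell by 0.41, ACAT1 by 0.25 and the mitochondrial transaminase BCAT2 by 0.25, whereas the cytosolic transaminase BCAT1 rose by 0.81 (117 ± 22.2 to 208 ± 6.54 CPM, FDR = 0.00218) and ACAD8 by 0.18. In Tet-MIST1, 7 rose and 0 fell (26.9%, median 0.11), led by BCKDK (0.71, FDR = 4.63e-06), MCEE (0.66) and ACAD8 (0.62). BCKDK encodes the kinase that inhibits the branched-chain ketoacid dehydrogenase and is no enzyme of catabolism itself, while ACAD8 acts in the same valine branch as ALDH6A1.

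In the proline and lysine list, 4 of 11 rose and 4 fell in Tet-PTF1a (72.7%, median -0.01) and 3 of 10 rose and 0 fell in Tet-MIST1 (30.0%, median 0.04). AASS, which starts lysine degradation, rose by 1.19 in Tet-PTF1a (SE 0.28, FDR = 6.32e-05). AASS was not listed for every line, so its level in CPM scaled over all libraries is not given. PRODH, which starts proline degradation, rose there by 0.68 at under 1 CPM, and GCDH by 0.24. HYKK fell by 0.32, PYCR1 by 0.23 and PYCRL by 0.19. PYCR1 rose in Tet-MIST1 from 188 ± 4.45 to 268 ± 15.2 CPM (0.51, FDR = 4.23e-05), as did GCDH (0.26). PYCR1 and PYCRL encode reductases that make proline, so in metabolism they act in the same direction as ALDH18A1 and opposite to ALDH4A1. Their transcripts fell in Tet-PTF1a, where that of ALDH18A1 rose by 0.10.

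In the GABA and glutamate list, 1 of 10 rose and 2 fell in Tet-PTF1a (30.0%, median -0.04), and 2 of 10 rose and 1 fell in Tet-MIST1 (30.0%, median 0.01). GAD1, which makes GABA, fell by 0.67 in Tet-PTF1a (5.25 ± 0.118 to 3.20 ± 0.482 CPM, FDR = 4.75e-07) and GLUD1 by 0.06. GOT1 rose by 0.18 in Tet-MIST1, where OXCT1 fell by 0.19. Of the 8 alcohol, aldo-keto and carbonyl reductases tested, which convert aldehydes to alcohols instead of acids, 3 rose in Tet-MIST1 (37.5% against 20.6% of all genes, median 0.16) and 3 fell in Tet-PTF1a (37.5% against 48.2%, median -0.13). The risers were AKR1B1 (93.7 ± 1.44 to 136 ± 11.4 CPM, 0.53, FDR = 7.80e-05), CBR1 (0.26) and AKR1A1 (0.24), and CBR1 (-0.17), CBR4 (-0.15) and AKR7A2 (-0.11) fell. In Tet-One, 0 genes of these lists were called by edgeR, as over all genes.

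**Figure D5:**
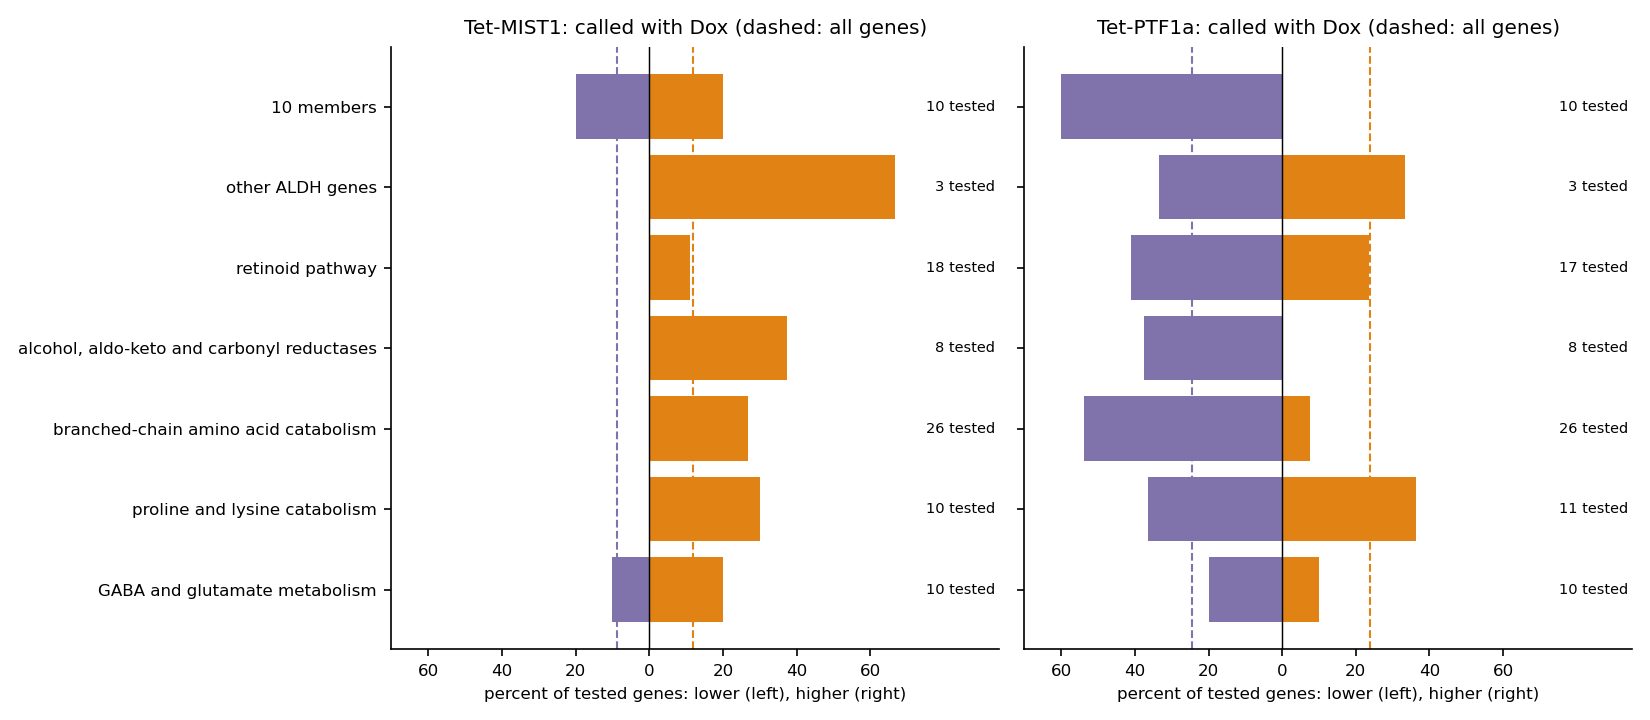
Percent of the tested genes of each list that were called higher (orange, to the right) or lower (purple, to the left) with Dox in Tet-MIST1 and Tet-PTF1a, with the number tested at the right and dashed lines at the shares over all genes. In Tet-PTF1a, 6 of the 10 members were called lower and 4 were not called (ALDH3A2 and ALDH9A1 were called higher with library size scaling), and in Tet-MIST1 they were called 2 higher and 2 lower.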

How the data were processed

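Polyadenylated RNA of the 3 Panc-1 lines was sequenced in 24 libraries, and the labels gave each library's group and replicate number. The authors deposited, in one table per line, unnormalized counts of reads per gene after alignment to hg19. The authors also deposited a CPM signal scaled by their own library factors, which served only as an alternative for levels. The remaining deposited columns, the authors' own comparison of Dox with Control (its log2 fold change with p-value and FDR), were not used. The submitters' processing notes name TopHat, HTSeq, DESeq and edgeR. The use of strand in counting is not given in the sources used here. The tables listed 13879, 13879 and 14053 genes, and 20 gene names per table had become dates.

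Counts were tested with edgeR 4.0.16 in R 4.3.3 (quasi-likelihood test, TMM factors, robust fit, genes above 0.5 CPM in at least 4 libraries of the comparison, Benjamini-Hochberg FDR under 0.05). Fold changes carry a prior count of 2. Levels are CPM with TMM factors over the 24 libraries and the 13506 genes of all tables, and reads per kb use the listed exon lengths. The study's methods call the replicates biological, but neither they nor the labels say whether these were separate cultures, so p-values measure the spread between these samples. All replicate pairs differed beyond counting noise (chi-square over its degrees of freedom, 1.39 to 238). The fits were tested on simulated data, with changes larger than most of those reported here. The simulated spread between libraries was below that of the Tet-One fit and of the interactions with Tet-One. How well the fits find smaller changes was not tested. Overlapping genes and pseudogenes were read from GENCODE lifted to GRCh37, the assembly of hg19. The members and lists were chosen with earlier results of these data known. The named genes were all members, every other listed ALDH gene, up to 3 rising and 3 falling genes per list and line by fold change, and the 3 most similar genes of members called in both induced lines. Some genes that this rule names are not reported here. The alternatives were DESeq2 1.42.0, library size scaling, no filter, a minimum of 10 counts per library, a replicate block, 1 fit over all libraries, removal of the dependence on exon length and GC (mgcv 1.9.3), a prior count of 0.125, the deposited CPM, and each library left out in turn.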

Additional observations from a re-analysis of the deposited data

Results flagged for a closer look

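The response to Dox differed between lines for several members by the test of the interaction itself. Against Tet-One, the Tet-PTF1a response was lower by -0.84 on the log2 scale for ALDH1A3, -0.24 for ALDH1B1, -0.50 for ALDH2 and -0.94 for ALDH3B1. Against Tet-MIST1 it was lower by -0.50 for ALDH1A3, -0.22 for ALDH1B1, -0.53 for ALDH2, -0.18 for ALDH3A2, -1.09 for ALDH3B1, -0.64 for ALDH6A1 and -0.14 for ALDH7A1. Of all genes, 12.9% were called against Tet-One and 36.4% against Tet-MIST1. Against Tet-One, the ALDH2 call held in 7 of 16 fits with a library left out and that of ALDH1B1 in 5 of 16. The ALDH7A1 call against Tet-MIST1 held in 14 of 16.

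A library lay far from the other 3 of its group for 2 of the 60 combinations of member and group, where chance gives about 1 in 20. ALDH3B1 in Tet-MIST1 Dox replicate 2 measured 20.3 CPM against 15.9 to 16.6 in the others. ALDH4A1 in Tet-PTF1a Dox replicate 4 measured 30.0 CPM against 27.6 to 27.9.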

How the results depend on the processing

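The number of members called with Dox was 0 under every alternative in Tet-One, 4 to 6 in Tet-MIST1 and 5 to 8 in Tet-PTF1a. The calls over all genes ranged from 1436 to 3904 in Tet-MIST1 and from 3128 to 7090 in Tet-PTF1a. For Tet-MIST1 against Tet-One the count of 0 became 2 with DESeq2, 4 with all 24 libraries in one fit and 3 after the length and GC trend was removed, and was 0 to 4 with a library left out (4 without Tet-One Dox replicate 1). Over all genes, DESeq2, the fit of 24 libraries and the trend removal called 499, 533 and 812, against 232 in the reported fit. For Tet-PTF1a against Tet-One the count of 4 was 2 to 5 with a library left out, where 1393 to 4146 of all genes were called. The count of members was 2 without Tet-One Control replicate 3 or 4, Tet-PTF1a Control replicate 1 or 3, or Tet-PTF1a Dox replicate 2 or 3. The cause was not tested. Tet-PTF1a against Tet-MIST1 gave 6 to 7, and the Control comparisons 9 to 10 and 6 to 8. There the calls over all genes ranged from 2716 to 5598, from 9333 to 11446 and from 9268 to 10760. Over all genes, leaving out Tet-One Dox replicate 1 moved the share called from 1.67% to 14.1% (Tet-MIST1 against Tet-One) and from 12.9% to 30.7% (Tet-PTF1a against Tet-One). The genes called with Dox in Tet-MIST1 went from 2812 to 3482 without Tet-MIST1 Dox replicate 1 and to 3770 without Dox replicate 2. Without Tet-MIST1 Control replicate 3 they fell to 1436. The split of all calls into higher and lower moved from 746 and 992 to 947 and 804 for Tet-PTF1a against Tet-One with library size scaling, from 5308 and 5390 to 4076 and 6274 for the Tet-PTF1a Control comparison with the length and GC trend removed, and from 206 and 26 to 532 and 280 for Tet-MIST1 against Tet-One with that trend removed.

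The replicate numbers did not pair the samples (correlations of deviations from -0.244 to 0.219). With a replicate block, 0, 4 and 6 members were called in Tet-One, Tet-MIST1 and Tet-PTF1a, and 0, 3 and 6 in the interactions, where ALDH1B1 was lost against Tet-One and ALDH7A1 (FDR = 0.0604) against Tet-MIST1. Over all genes the block called 0 of 13428, 1463 of 13623 and 6706 of 14053 with Dox, against 0, 2812 and 6775 without it. For the interactions it called 83 of 13859, 1230 of 13506 and 4165 of 13506 genes, against 232, 1738 and 4916.

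No called value of the 10 members changed sign. Values near 0 that were called neither in the reported fit nor in the alternative did so in 43 fits. With library size scaling these were ALDH3A2 in Tet-One (-0.00812), ALDH1B1 (0.00917) and ALDH7A1 (0.00553) for Tet-MIST1 against Tet-One, and ALDH1A3 in Tet-PTF1a against Tet-One Control (0.0713, or 0.000989 over all 24 libraries). With the length and GC trend removed they were ALDH5A1 (0.0922) and ALDH6A1 (0.0581) in Tet-One, ALDH3A2 for Tet-PTF1a against Tet-One (-0.0300), ALDH5A1 for Tet-PTF1a against Tet-MIST1 (-0.00199) and ALDH9A1 in Tet-PTF1a against Tet-One Control (-0.0409). With a library left out, the Tet-One log2 change ranged from -0.00112 to 0.0926 (ALDH1A3), -0.0478 to 0.112 (ALDH2), -0.00938 to 0.0602 (ALDH3A2), -0.0485 to 0.114 (ALDH3B1), -0.0467 to 0.0187 (ALDH5A1), -0.113 to 0.0301 (ALDH6A1), -0.0395 to 0.0649994 (ALDH7A1) and -0.0569 to 0.0795 (ALDH9A1), and that of ALDH9A1 in Tet-MIST1 from -0.0532 to 0.00656. The Tet-MIST1 minus Tet-One difference ranged from -0.0407 to 0.0211 (ALDH1B1), -0.0599 to 0.0987 (ALDH2), -0.0531 to 0.0474 (ALDH7A1) and -0.105 to 0.0262 (ALDH9A1), the Tet-PTF1a minus Tet-One difference of ALDH9A1 from -0.0119 to 0.122, and the Tet-PTF1a Control difference from -0.0397 to 0.00909 (ALDH1A3) and -0.0206 to 0.0392 (ALDH9A1).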
